A study of Homo sapiens with 12 samples.

Results

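The genes of the respiratory chain were followed with and without doxycycline in derivatives of LS180, a long-established line of human colorectal cancer cells. Of the 60671 annotated genes the set held the 13 protein genes of the mitochondrial chromosome and 88 nuclear genes. The nuclear genes were taken by symbol: NDUFA, NDUFB, NDUFC, NDUFS and NDUFV genes, SDHA to SDHD, UQCR genes, COX4 to COX8 genes and ATP5 genes. The rule itself used no measured value, but the set was chosen with earlier results of these data known. The 14 genes with NDUFAF symbols, 174 pseudogenes and 8 hyphenated symbols, such as readthrough and antisense genes, were left out. Complex I had 7 mitochondrial and 37 nuclear members, complex II had 4 nuclear members, and complex III had 1 mitochondrial and 9 nuclear members. Complex IV had 3 mitochondrial and 19 nuclear members, with NDUFA4 and NDUFA4L2 counted there, and complex V had 2 and 19.

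The respiratory chain passes electrons from NADH and succinate through complexes I to IV to oxygen, and the proton gradient that results drives ATP synthase, complex V. Complexes I, III, IV and V are built from subunits of both genomes: the mitochondrial chromosome encodes core membrane subunits, which mitochondrial ribosomes translate, while complex II is wholly nuclear. Colorectal cancer cells use this chain beside glycolysis. Doxycycline, here the inducer of the constructs, belongs to the tetracyclines, a class of antibiotics known to bind bacterial and mitochondrial ribosomes.

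The 3 derivative lines carried a doxycycline-inducible construct for V5-tagged wild-type SOX9, for V5-tagged M303, a truncated mutant SOX9, or for GFP, the control. Each was sequenced after 24 h in 0.5 µg/ml doxycycline and without it, as 2 libraries per group and 12 in all. SOX9 is a DNA-binding regulator active in the stem cells of the intestinal crypt. Every library with doxycycline also had its construct induced, so the drug and the construct cannot be told apart within a line, and each construct was in a line of its own, so construct and line cannot be told apart either. Whether the 2 libraries of a group were grown as separate cultures is not stated, so p-values reflect the spread among these libraries alone, which may be technical.

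Libraries held 31012775 to 48529770 counts. SOX9 served as the check of the labels. It had 711 and 760.5 counts per 1000000 (CPM) in the SOX9 line with doxycycline and 357 and 381 CPM without, and 818 and 867 CPM in the M303 line with doxycycline and 399 and 366.5 CPM without. It was 1.00 ± 0.07 higher on the log2 scale (SE, n = 2 libraries each; edgeR adjusted p = 4.1e-08) in the first line and 1.14 ± 0.07 higher (edgeR adjusted p = 2.84e-08) in the second. It had 405 and 371 CPM in the GFP line with doxycycline and 399 and 392.3 CPM without. All 10 markers of colorectal epithelium fixed for this purpose were at 1 CPM or more and together gave 10421 to 12208 CPM with doxycycline and 11196 to 12540 CPM without. Markers of other cells were low in sum: 1 of 6 fibroblast and 1 of 5 blood and immune markers reached 1 CPM, as did 0 of 4 endothelial and 0 of 5 striated muscle markers. CD3E was at 0 in every library.

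Levels between genes were compared per length, as reads per kilobase of exon at a library size of 1000000 (RPKM), averaged over the 12 libraries. The length takes in all annotated exons of a gene, so exons that are not used lower its value. How far this set the order of the genes was not tested. The mitochondrial members stood far above most nuclear ones. Their median was 687 RPKM, against 27.0 RPKM for the 80 nuclear members that passed the filter on low counts and 2.63 RPKM for all 18219 genes that passed it. MT-CO1, the catalytic core subunit of complex IV, was highest at 2565 RPKM, and only 1 gene tested had a higher value. MT-ND1, a membrane subunit of complex I, was the lowest of the mitochondrial members at 276 RPKM. MT-ND6 had 298 RPKM and is the 1 member of the 13 that lies on the minus strand of the mitochondrial chromosome.

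By complex, the mitochondrial medians were 524 RPKM in complex I, 571 RPKM for MT-CYB, the cytochrome b of complex III, 1831 RPKM in complex IV and 974 RPKM in complex V. The nuclear members tested had lower medians, at 19.6 RPKM in complex I, 28.3 in complex II, 49.2 in complex III, 66.9 in complex IV and 33.1 in complex V. The highest nuclear member was ATP5F1B, the catalytic beta subunit of ATP synthase, at 675 RPKM, above the lowest mitochondrial ones. Within the complexes the highest nuclear members were NDUFS5 of complex I at 290.3 RPKM, the iron-sulphur subunit SDHB of complex II at 49.6, the core protein UQCRC1 of complex III at 152 and COX5A of complex IV at 151. The lowest were NDUFV2 at 0.293 RPKM in complex I, the flavoprotein SDHA at 2.12 in complex II, UQCRHL at 2.06 in complex III, COX7A2L at 13.5 in complex IV and ATP5PO at 5.77 in complex V. Before division by length COX7A2L had 75.4 CPM, and it shared no coding base with exons of other genes.

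Some of these low values stood beside overlaps in the annotation. The deposited counting left out reads that fall on exons of more than 1 gene. Of the 80 nuclear members tested, 56 shared no coding base with exons of other genes and had a median of 107 CPM (range 4.48 to 1510 CPM). Another 19 shared some of their coding bases but under 90%, with a median of 18.8 CPM. The remaining 5 shared at least 90%, with a median of 1.63 CPM (range 0.442 to 20.4 CPM). These were NDUFV2, NDUFA7 and UQCR11, each with every coding base shared, NDUFA13 with 98.4% and SDHA with 90.2%. NDUFV2 and SDHA encode core subunits of complexes I and II. How much each overlap lowered a count was not tested. Fold changes of such genes rest on reads from the bases that remain.

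**Figure D1:**
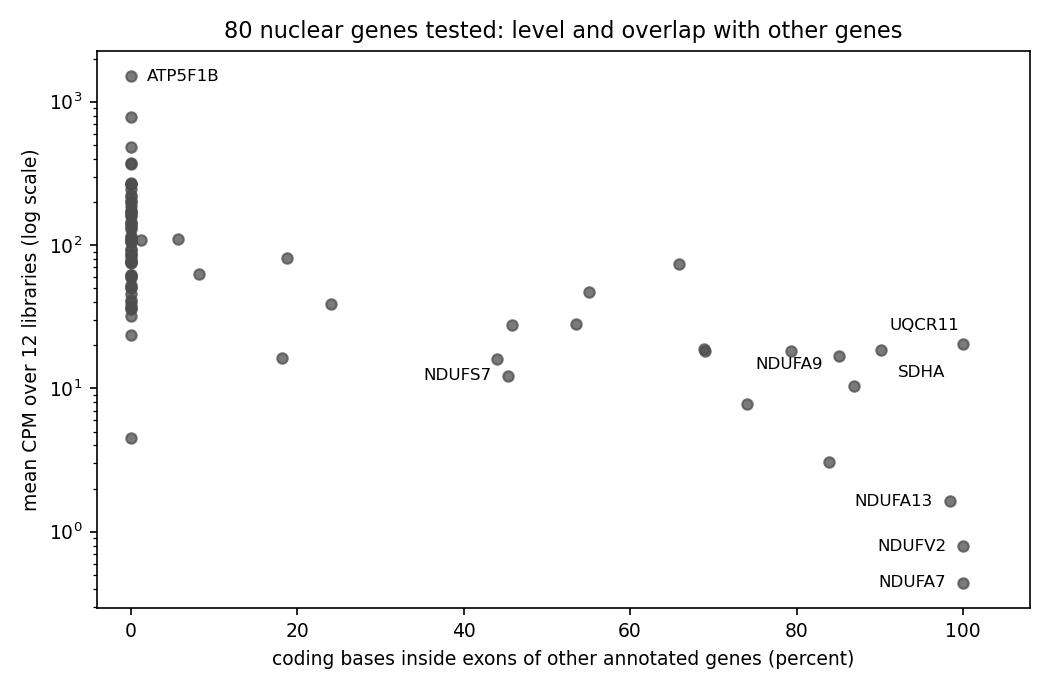
Mean CPM over 12 libraries (log scale) of the 80 nuclear genes tested against the percent of their coding bases that lie in exons of other annotated genes. Each point is 1 gene; NDUFV2, NDUFA7 and NDUFA13, at 98.4% or more, lie lowest, while ATP5F1B, with no shared base, lies highest.

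On the mitochondrial chromosome the same rule touched neighbouring reading frames that overlap. MT-ATP8 and MT-ATP6, subunits of the membrane part of ATP synthase, share 46 bases at chrMT:8527-8572 (GRCh38, plus strand), and MT-ND4L and MT-ND4, of the membrane arm of complex I, share 7 bases at chrMT:10760-10766 (plus strand). The shared bases are shown since reads across them were counted for neither gene. Capitals mark the start codon of the downstream gene.
MT-ATP8 with MT-ATP6: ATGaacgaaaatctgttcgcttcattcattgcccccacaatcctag
MT-ND4L with MT-ND4: ATGctaa
Reads that map to several places were not counted, and the nuclear genome holds copies of mitochondrial genes. The table listed 404 such copies, of which 60 had a count, and MTATP6P1, MTCO1P12 and MTND2P28 averaged 79.5, 19.2 and 7.95 CPM.

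Of the 88 nuclear members 8 had too few counts to test, and 7 of these are forms of complex IV subunits known from muscle, lung, testis or other specialised settings. COX4I2, a form described in lung, had 5 counts over the 12 libraries beside 165981 counts of COX4I1. The muscle form COX6A2 had 0 counts beside 12681 of COX6A1, which allows up to 3 counts. COX7A1, of heart and muscle, had 47 counts, against 47978 of COX7A2. NDUFA4L2, a hypoxia-inducible relative of NDUFA4, made up 0.0754% of the counts of the pair. COX6B2 had 22 counts, COX8C 2 and COX7B2 0. Exons of other genes held 100% of the coding bases of COX6B2 and 25.1% of those of COX6A2. Reads there were not counted, so the low count of COX6B2 does not show low expression. The last of the 8 was ATP5MGL with 17 counts. In each of these pairs the widely expressed form took nearly all counts.

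UQCRHL, a copy of UQCRH that lacks introns, took 2.48% of the counts of that pair, with a range of 1.74% to 3.57% over the libraries. Reads that match both were not counted, so neither value is complete. The c subunit of ATP synthase, which forms the rotating ring, is encoded by ATP5MC1, ATP5MC2 and ATP5MC3, whose proteins are identical once mature. ATP5MC3 gave a median of 54.5% of the counts of the trio (range 52.9% to 59.0%), ATP5MC2 26.3% (24.9% to 29.9%) and ATP5MC1 17.97% (15.7% to 19.7%). The order was the same in every library.

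The promoters of nuclear members were searched on both strands for the 10-base core that the transcription factor NRF1 is known to bind, which reads GCGC, any base, TGCGC. NRF1 regulates many respiratory genes. RefSeq promoters (GRCh38.p14; 250 bases before to 50 after the start) were at hand for 70 of the 88, and 17 of them (24.3%) held it. It was present in 6.98% of the 27305 promoters of all genes and in 12.5% of the 11951 of genes tested. A match is a description of the sequence and not a site of binding. The promoter of NDUFA9 is shown since NDUFA9 had the smallest p of the nuclear members in the SOX9 line, and that of SDHA since it held 4 matches. They lie at chr12:4648864-4649163 (plus strand) and chr5:218070-218369 (plus strand), and capitals mark the matches, which in SDHA read as the motif on the opposite strand.
NDUFA9: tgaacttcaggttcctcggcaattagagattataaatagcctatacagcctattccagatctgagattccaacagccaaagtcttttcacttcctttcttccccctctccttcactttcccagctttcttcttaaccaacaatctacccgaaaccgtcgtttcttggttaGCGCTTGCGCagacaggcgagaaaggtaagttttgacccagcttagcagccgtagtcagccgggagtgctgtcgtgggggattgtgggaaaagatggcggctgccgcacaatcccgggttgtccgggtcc
SDHA: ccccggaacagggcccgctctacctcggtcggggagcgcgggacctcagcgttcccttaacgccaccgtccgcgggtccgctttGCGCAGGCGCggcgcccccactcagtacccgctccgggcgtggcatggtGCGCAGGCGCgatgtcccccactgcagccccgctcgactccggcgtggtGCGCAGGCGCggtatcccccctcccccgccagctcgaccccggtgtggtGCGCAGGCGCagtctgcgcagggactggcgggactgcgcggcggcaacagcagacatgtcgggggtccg

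The mitochondrial members took a lower share of all counts with doxycycline in the SOX9 and GFP lines, without overlap between libraries. In the M303 line the difference in mean share was -0.0275 percentage points, and 0.0209 without replicate 1 without doxycycline. The mean nuclear share lay lower in the M303 line, while its direction in the SOX9 and GFP lines turned when 1 library was left out. In the SOX9 line the 13 mitochondrial genes took 1.21% and 1.06% of counts with doxycycline and 1.28% and 1.24% without. In the M303 line they took 1.20% and 1.11% with doxycycline and 1.23% and 1.13% without. The GFP line gave 1.08% and 1.06% with doxycycline and 1.35% and 1.23% without. The libraries with doxycycline lay below those without in the SOX9 and GFP lines and overlapped them in the M303 line. In these bulk libraries fewer cells with a given content and less RNA per cell cannot be told apart, and a share of counts is relative to all other transcripts.

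Over the lines the mitochondrial share averaged 1.12% ± 0.07 with doxycycline and 1.24% ± 0.07 without (SD, n = 6 libraries each), and the 6 and 6 libraries overlapped. The nuclear members took 1.00% ± 0.06 with doxycycline and 1.01% ± 0.08 without. Their share was 1.02% and 1.00% with doxycycline and 1.09% and 0.982% without in the SOX9 line, a difference in means of -0.0226 percentage points that was 0.0323 without replicate 1 without doxycycline. In the M303 line it was 1.026% and 0.977% with doxycycline and 1.030% and 1.09% without, which do not overlap. In the GFP line it was 0.908% and 1.09% with doxycycline and 0.978% and 0.878% without, a difference of 0.0689 that was -0.0195 without replicate 2 with doxycycline. The ratio of the mitochondrial to the nuclear share was 1.12 ± 0.08 with doxycycline and 1.24 ± 0.14 without (SD, n = 6 each). In the SOX9 line it was 1.18 and 1.06 with doxycycline and 1.17 and 1.27 without, and in the M303 line 1.17 and 1.13 with doxycycline and 1.19 and 1.04 without. In the GFP line it was 1.18 and 0.973 with doxycycline and 1.38 and 1.40 without. The libraries overlapped in the SOX9 and M303 lines, and the M303 mean was higher with doxycycline, at 1.15 against 1.12.

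**Figure D2:**
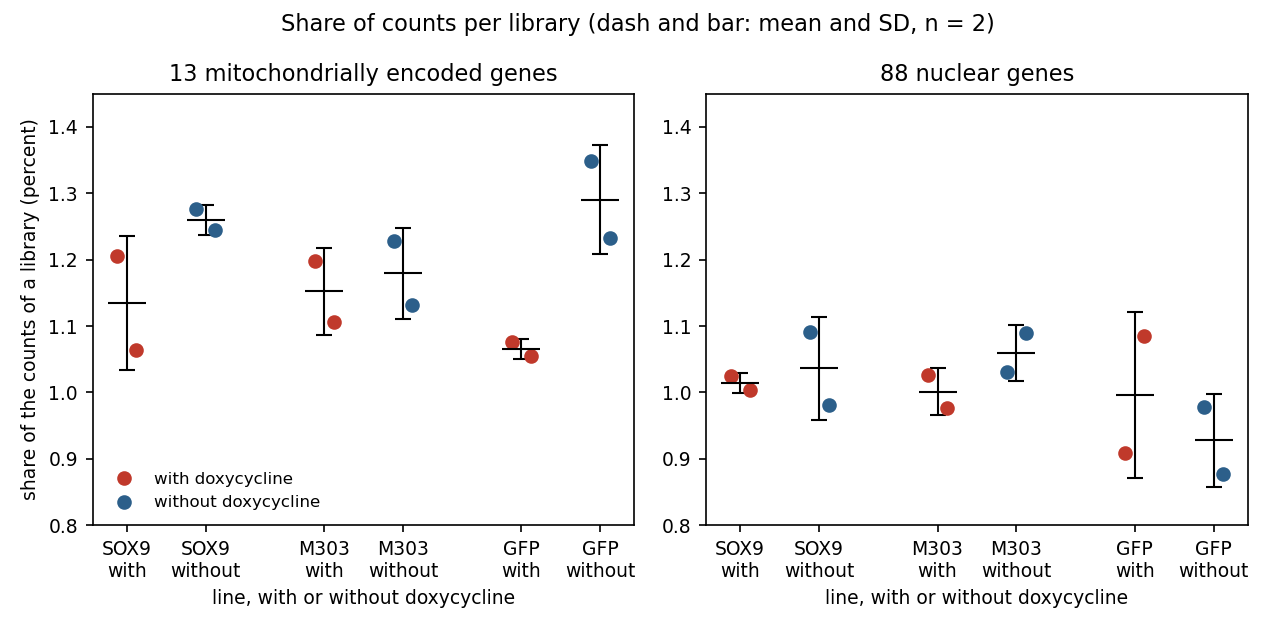
Share of the counts of each library, in percent, that fell on the 13 mitochondrially encoded genes (left) and the 88 nuclear genes (right), by line, with (red) and without (blue) doxycycline. Points are libraries and dashes with bars the mean and SD of 2; the mitochondrial share of the GFP line was 1.08% and 1.06% with doxycycline and 1.35% and 1.23% without, while the nuclear shares lay between 0.878% and 1.09%. The vertical axis does not start at 0.

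Each gene was tested with edgeR's quasi-likelihood test, and a gene is termed called where its p, adjusted after Benjamini and Hochberg over the 18219 genes, was under 0.05. Within a single line no member of either genome was called. The background was 2.97% of genes called in the SOX9 line, 1.16% lower and 1.81% higher, 0.00549% in the M303 line and 0% in the GFP line. In the mean of the doxycycline effect over the 3 lines, 4 of 13 mitochondrial members and 0 of 80 nuclear members were called, all 4 lower with doxycycline, where 1.02% of genes were called, 0.439% lower and 0.582% higher. The 4 were MT-CO1 and the complex I subunits MT-ND4, MT-ND5 and MT-ND6. The mean takes in the inductions of all 3 constructs and is no effect of the drug alone. SOX9 itself was 0.70 ± 0.04 higher in it (log2, SE; edgeR adjusted p = 3.68e-09). At an unadjusted p under 0.05, 9 mitochondrial and 2 nuclear members were lower in that mean, against 4.34% of genes, and 0 mitochondrial and 1 nuclear member were higher, against 5.24%.

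MT-CO1 (chrMT:5904-7445, plus strand) had 3908 and 3647 CPM in the SOX9 line with doxycycline and 4217 and 4413 CPM without. In the M303 line it had 3928 and 3765 CPM with doxycycline and 4129 and 3668 CPM without. The GFP line showed 3467 and 3449 CPM with doxycycline and 4568 and 4301 CPM without. The libraries with doxycycline were all lower in the SOX9 and GFP lines and overlapped those without in the M303 line. Its mean log2 fold change was -0.19 ± 0.04 (SE; edgeR adjusted p = 0.0154), a ratio of 0.877.

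MT-ND6 (chrMT:14149-14673, minus strand), a membrane subunit of complex I, showed the largest of the 4 differences. It had 147 and 132 CPM with doxycycline and 189 and 164 CPM without in the SOX9 line, and 131 and 130.4 CPM with doxycycline and 158 and 178 CPM without in the M303 line. It had 169 and 132 CPM in the GFP line with doxycycline and 188 and 160.2 CPM without. The libraries did not overlap in the SOX9 and M303 lines and did in the GFP line. The mean log2 fold change was -0.31 ± 0.06 (SE; edgeR adjusted p = 0.0204), a ratio of 0.809. The counting used no strand, so reads of MT-ND6 and of transcripts that run over it on the other strand cannot be told apart.

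MT-ND4 (chrMT:10760-12137, plus strand) had 1368 and 1216 CPM with doxycycline and 1552 and 1510.2 CPM without in the SOX9 line. In the M303 line it had 1459 and 1336 CPM with doxycycline and 1527 and 1397 CPM without, and in the GFP line 1296 and 1224 CPM with doxycycline and 1678 and 1477 CPM without. As for MT-CO1, the libraries did not overlap in the SOX9 and GFP lines and did in the M303 line. The mean log2 fold change was -0.21 ± 0.05 (SE; edgeR adjusted p = 0.0208).

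MT-ND5 (chrMT:12337-14148, plus strand), an antiporter-like subunit at the end of the membrane arm of complex I, had 683 and 620.1 CPM with doxycycline and 760.4 and 802 CPM without in the SOX9 line. It had 688 and 683 CPM with doxycycline and 772 and 708 CPM without in the M303 line, and 782 and 621 CPM with doxycycline and 868 and 890.3 CPM without in the GFP line. In each of the 3 lines both libraries with doxycycline lay below both without. The mean log2 fold change was -0.23 ± 0.05 (SE; edgeR adjusted p = 0.0222).

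For all 4 genes the 6 libraries with doxycycline overlapped the 6 without. The calls rested on single libraries: none of the 4 was called without replicate 2 of the SOX9 line with doxycycline (edgeR adjusted p = 0.099 for MT-CO1, 0.117 for MT-ND4, 0.106 for MT-ND5 and 0.0698 for MT-ND6) or without replicate 2 of the M303 line with doxycycline (adjusted p = 0.0662, 0.0837, 0.0543 and 0.0622). MT-ND6 alone was called without replicate 1 of the M303 line without doxycycline and MT-CO1 alone without replicate 1 of the GFP line without doxycycline. Without replicate 1 of the M303 line with doxycycline, MT-ND5 had an adjusted p of 0.052 and MT-ND6 of 0.0659. MT-ND5 was also lost without replicate 2 of the GFP line without doxycycline (adjusted p = 0.0599), and MT-ND6 without replicate 1 of the SOX9 line (0.0592) or replicate 2 of the M303 line (0.0615), both without doxycycline. In the mean over 2 lines, 3 were called without the M303 line, 1 without the GFP line and 0 without the SOX9 line. The share of all genes called in those means is not given. Without the SOX9 line the fold changes of MT-CO1, MT-ND4, MT-ND5 and MT-ND6 were -0.19, -0.19, -0.22 and -0.29. They were -0.11, -0.15, -0.19 and -0.36 without the GFP line, and -0.28, -0.28, -0.29 and -0.28 without the M303 line. With 1 library left out, the fold changes stayed within -0.22 to -0.16 for MT-CO1, -0.24 to -0.18 for MT-ND4, -0.29 to -0.18 for MT-ND5 and -0.37 to -0.25 for MT-ND6.

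The other mitochondrial members were not called. MT-ND4L, a small subunit of complex I that shares bases with MT-ND4, had a mean log2 fold change of -0.24 (edgeR adjusted p = 0.0651) and MT-CYB one of -0.19 (adjusted p = 0.154). The rest were MT-ATP8 at -0.18, MT-CO2 at -0.15, MT-CO3 at -0.14, MT-ND1 at -0.13, MT-ATP6 at -0.12, MT-ND2 at -0.10 and MT-ND3 at -0.02. The values are differences between the groups, not levels, and all 13 were below 0. MT-ND3 had the widest interval, from -0.34 to 0.30, and its sign turned with the libraries used.

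**Figure D3:**
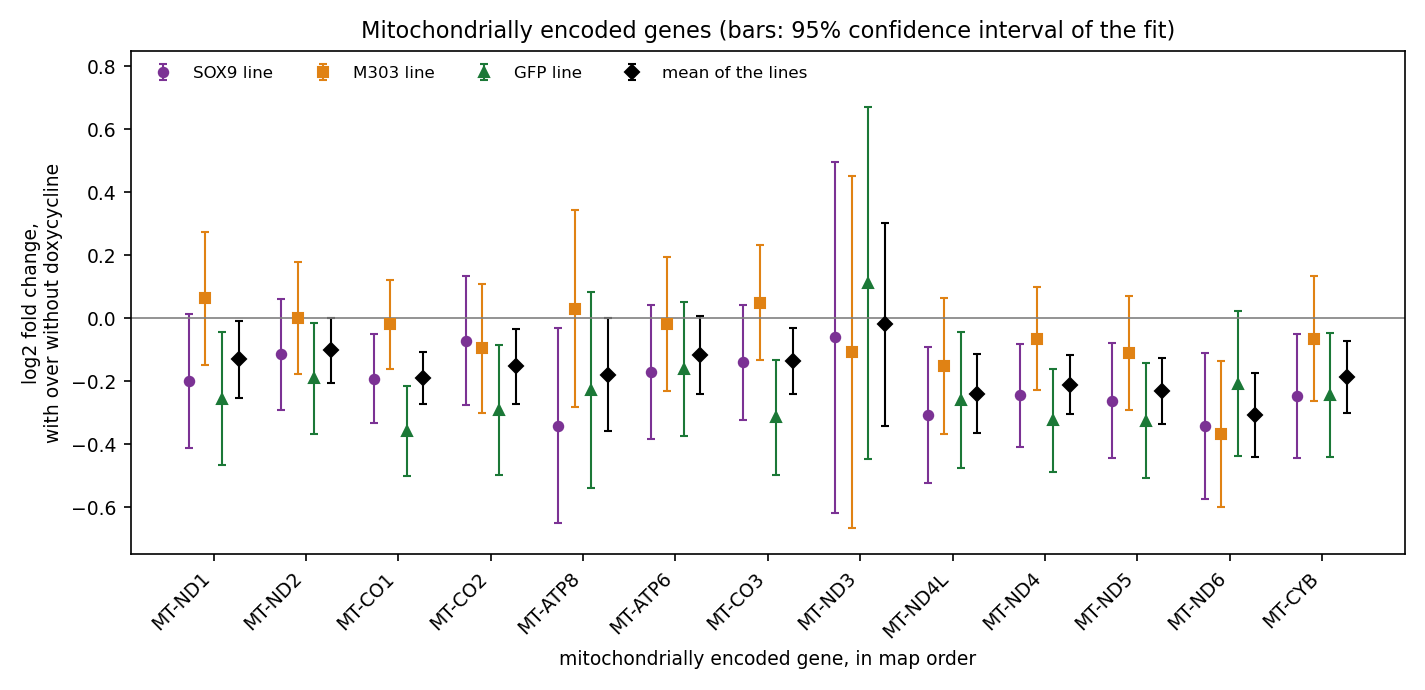
Log2 fold change, with over without doxycycline, of the 13 mitochondrially encoded genes in map order, in the SOX9, M303 and GFP lines and as the mean of the lines. Bars are 95% confidence intervals of the fit; all 13 means lie below 0, MT-ND6 is lowest at -0.31, and in the M303 line most points lie near 0 apart from MT-ND6 at -0.37.

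The size of the mitochondrial differences varied from line to line, but no difference between lines was called for any of the 13. The 13 were measured in the same libraries and can shift together, so counts over them are not counts of separate observations. Their median log2 difference from each gene's mean over libraries was -0.217 in replicate 2 of the SOX9 line with doxycycline. It was 0.239 in replicate 1 of the GFP line without doxycycline. All 13 fold changes in the SOX9 line were below 0, with a median of -0.20 (-0.087 without its replicate 2 with doxycycline), and 7 of 13 genes had both libraries with doxycycline below both without, against 21.5% of all genes. In the GFP line 12 of 13 were below 0, with a median of -0.26 (-0.16 without its replicate 1 without doxycycline), and 11 of 13 did not overlap, against 13.8%. The M303 line had 9 of 13 below 0, a median of -0.06 (0.0085 without its replicate 2 with doxycycline) and 3 of 13 without overlap, against 16.8%. Over all genes tested the medians were 0.01, 0.00 and 0.00 in the SOX9, GFP and M303 lines. At an unadjusted p under 0.05, 7 were lower in the SOX9 line (6.81% of genes), 9 in the GFP line (1.25%) and 1, MT-ND6, in the M303 line (1.67%). None of the 13 was higher at that p in any line, where 7.02%, 1.94% and 1.96% of genes were. With no filter on low counts, edgeR called 6 of the 13 in the SOX9 line and 2 in the GFP line. The share of all genes called in that fit is not given, so these counts are no result about the members.

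Among the single-line values, MT-CO1 in the GFP line had the smallest p, at -0.36 ± 0.07 on the log2 scale (SE; edgeR adjusted p = 0.339). In the SOX9 line it was MT-ND4, at -0.24 ± 0.08 (adjusted p = 0.113), and in the M303 line MT-ND6, at -0.37 ± 0.11 (adjusted p = 1.00). Fold changes were below 0 in all 3 lines for 8 of the 13: MT-CO1, MT-CO2, MT-ATP6, MT-ND4L, MT-ND4, MT-ND5, MT-ND6 and MT-CYB. The same held for 12.8% of all genes and for 3 of 80 nuclear members.

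Whether the inductions differed from one another was tested with interaction terms, and no member was called in any of the 3. These comparisons share libraries with one another and with the single-line ones. In SOX9 induction minus GFP induction, where 0.895% of genes were called, 0.263% lower and 0.631% higher, the mitochondrial median was 0.06 and the nuclear median -0.18. Without replicate 2 of the GFP line with doxycycline the nuclear median was 0.0022. With all libraries 4 nuclear members were lower at an unadjusted p under 0.05, against 4.17% of genes, and 0 members were higher, against 4.84%. NDUFA9 had the smallest p, at -0.72 ± 0.23 (log2, SE; edgeR adjusted p = 0.22), followed by NDUFB6 at -0.45 ± 0.19 and UQCR10, of complex III, at -0.60 ± 0.26 (-0.29 without replicate 2 of the GFP line with doxycycline). M303 induction minus GFP induction, with 0.00549% called, had medians of 0.20 in the mitochondrial and -0.27 in the nuclear members, the last being -0.073 without that GFP library. Lower at an unadjusted p under 0.05 were 7 nuclear members, against 2.03% of genes, with SDHC at -0.35 ± 0.12, NDUFA3 at -0.59 ± 0.21 (-0.30 without replicate 2 of the GFP line without doxycycline) and NDUFA6 at -0.44 ± 0.16 first by p. At an unadjusted p under 0.05, 4 mitochondrial members were higher there, against 1.9% of genes: MT-CO1 by 0.34 ± 0.10, MT-CO3 by 0.36 ± 0.12, MT-ND1 by 0.32 ± 0.14 and MT-ND4 by 0.26 ± 0.11 (log2, SE). Each of these 4 and of the 3 nuclear genes had an edgeR adjusted p of 0.992. For SOX9 induction minus M303 induction, with 0.489% called, 0.132% lower and 0.357% higher, the mitochondrial median was -0.16 and the nuclear median 0.06. The first was -0.076 without replicate 2 of the SOX9 line with doxycycline, and the second -0.035 without replicate 2 of the SOX9 line without doxycycline. No member had an unadjusted p under 0.05, against 3.09% of genes lower and 3.9% higher. The nuclear members first by p were NDUFA13 at 0.94 ± 0.59, NDUFA9 at -0.34 ± 0.23 and NDUFB11 at 0.24 ± 0.16. With 1 library left out NDUFA13 ran from 0.42 to 1.76, NDUFA9 from -0.51 to -0.15 and NDUFB11 from 0.18 to 0.30.

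The mitochondrial ribosomal RNAs, which are no members but come from the same chromosome, gave no call either. MT-RNR2, of the large subunit, had 1503 and 1386 CPM with doxycycline and 1615 and 1888 CPM without in the SOX9 line. It had 1318 and 1545 CPM with doxycycline and 1572.5 and 1425 CPM without in the M303 line, and 1943 and 1455.5 CPM with and 1996.5 and 1897 CPM without in the GFP line. The libraries overlapped in the M303 and GFP lines and not in the SOX9 line. Its mean log2 fold change over the lines was -0.18 ± 0.07 (SE; edgeR adjusted p = 0.443), and that of MT-RNR1, of the small subunit, was -0.06 ± 0.17 (adjusted p = 0.956). The mRNA was captured by oligo(dT), so these values depend on how much of each rRNA was retained.

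The nuclear medians were small and depended on single libraries. Their median log2 fold change was -0.05 in the SOX9 line, -0.11 in the M303 line, 0.14 in the GFP line and -0.01 in the mean, with 29, 10, 72 and 36 of 80 above 0. With 1 library left out the median lay between -0.15 and 0.078 in the SOX9 line, turning positive without replicate 1 without doxycycline, and between -0.18 and -0.057 in the M303 line. In the GFP line it lay between -0.026, without replicate 2 with doxycycline, and 0.28, without replicate 1 without doxycycline. The mean ran from -0.069 to 0.044, without those same GFP libraries. The 80 were measured in the same libraries and can also shift together, so counts over them are not counts of separate observations. Of the 80, 21 in the SOX9 line had both libraries with doxycycline below both without, against 21.5% of all genes, and 5 had them above, against 23.2%. In the M303 line 35 of 80 had both libraries with doxycycline below both without, against 16.8%, and 4 above, against 17.1%. In the GFP line 1 of 80 was below, against 13.8%, and 3 were above, against 13.5%. At an unadjusted p under 0.05, 4 nuclear members were lower in the SOX9 line (6.81% of genes), 2 were lower in the M303 line (1.67% of genes) and 4 were higher in the GFP line (1.94%).

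**Figure D4:**
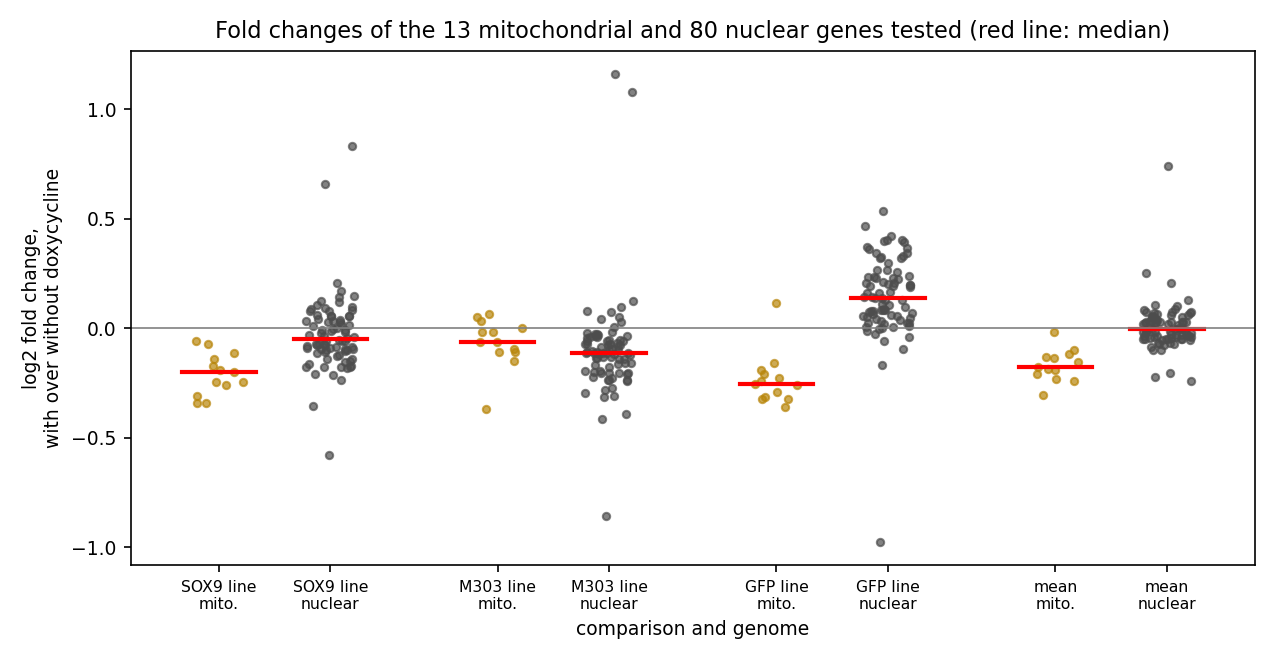
Log2 fold change, with over without doxycycline, of the 13 mitochondrial and 80 nuclear genes tested, in each line and in the mean of the lines; each point is 1 gene and red lines are medians. The mitochondrial medians are -0.20, -0.06, -0.26 and -0.18 and the nuclear medians -0.05, -0.11, 0.14 and -0.01 in the SOX9 line, M303 line, GFP line and mean.

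By complex, the nuclear medians in the GFP line were 0.14 in complex I, 0.08 in complex II, 0.14 in complex III, 0.22 in complex IV and 0.07 in complex V. In the M303 line they were -0.12, -0.08, -0.11, -0.11 and -0.10, with all 18 complex V members below 0. In the SOX9 line they were -0.08, 0.01, -0.06, -0.01 and -0.06. The complexes were not tested against each other.

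NDUFA9 (chr12:4649095-4694317, plus strand), a subunit at the junction of the arms of complex I, came nearest to a call in 1 line. It had 14.32 and 12.59 CPM in the SOX9 line with doxycycline and 22.42 and 17.84 CPM without. The values were 16.28 and 12.64 CPM with doxycycline and 15.49 and 18.60 CPM without in the M303 line, and 17.02 and 20.75 CPM with and 18.34 and 15.86 CPM without in the GFP line. The groups did not overlap in the SOX9 line and overlapped in both other lines. The difference in the SOX9 line was -0.58 ± 0.16 (log2, SE; edgeR adjusted p = 0.0559), and 12 of 21 alternatives called it, among them DESeq2 with an adjusted p of 0.0207. It was not called with a replicate block (edgeR adjusted p = 0.0743) or with library totals in place of TMM factors (edgeR adjusted p = 0.0809). With 1 library left out the difference ran from -0.73 to -0.41, the latter without replicate 1 of the SOX9 line without doxycycline. It was -0.68 without replicate 1 and -0.50 without replicate 2 of that line with doxycycline. NDUFA9 was called in none of the fits that left out 1 of these libraries. Several of the alternatives that called it left out only a library of another line. Exons of other genes covered 85.1% of its coding bases.

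NDUFS7 (chr19:1383527-1395589, plus strand), which carries an iron-sulphur cluster of complex I near the quinone site, was the 1 member of the 93 tested whose 6 libraries with doxycycline all lay below the 6 without. The same held for 29 of 18219 genes, 0.159%. It had 11.07 and 10.05 CPM with doxycycline and 13.43 and 13.62 CPM without in the SOX9 line, 10.99 and 11.78 CPM with and 13.50 and 12.68 CPM without in the M303 line, and 12.21 and 11.55 CPM with and 13.77 and 12.95 CPM without in the GFP line. Its mean difference of -0.24 ± 0.08 (log2, SE; edgeR adjusted p = 0.24) was not called, and no alternative called it. It was singled out after its values were seen. Other genes' exons held 45.4% of its coding bases.

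Further nuclear members with the smallest p of a comparison had no call. In the SOX9 line these included UQCRC1 at -0.18 ± 0.08 (SE), and in the M303 line NDUFA6, an accessory subunit of complex I, at -0.24 ± 0.11, ATP5MC3 at -0.21 ± 0.10 and NDUFA13 at -0.86 ± 0.42. For the GFP line they were SDHC, a membrane anchor of complex II, at 0.23 ± 0.08, and the complex I subunits NDUFB6 at 0.37 ± 0.13 and NDUFA2 at 0.39 ± 0.17. Without replicate 2 of the GFP line with doxycycline NDUFB6 was at 0.14 and NDUFA2 at 0.11, and UQCRC1 was at -0.076 without replicate 2 of the SOX9 line without doxycycline. NDUFV2 had the highest mean value, 0.74 ± 0.34, on 0.40 to 1.58 CPM, and 0.31 without replicate 2 of the M303 line with doxycycline. ATP5IF1, the inhibitor that blocks ATP hydrolysis by complex V, had log2 fold changes of -0.04 in the SOX9 line, -0.21 in the M303 line and 0.24 in the GFP line.

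The libraries lowest in short genes were also the lowest in nuclear members. Genes with a mean count of at least 50 were split into 5 parts by exonic length, and the median difference of each library from the mean over libraries (log2 of CPM plus 0.5) was taken for non-members in the shortest part. These medians were -0.068 and 0.039 with doxycycline and 0.023 and -0.104 without in the GFP line, and the nuclear members had -0.170 and 0.123 with doxycycline and -0.016 and -0.285 without. Of 78 nuclear members with such counts 43 were in that shortest part. The SOX9 and M303 lines had medians of short non-members between -0.019 and 0.054 and nuclear medians between -0.042 and 0.177. The mitochondrial members, all short, had -0.083 and -0.192 with doxycycline and 0.239 and 0.047 without in the GFP line. A scaling adjusted for gene length was run as an alternative. With it MT-CO1 and MT-ND4 were still called in the mean effect (edgeR adjusted p = 0.037 and 0.0291). MT-ND5 and MT-ND6 were not (adjusted p = 0.22 and 0.115). The part of gene length in the nuclear and mitochondrial values was not tested beyond this.

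**Figure D5:**
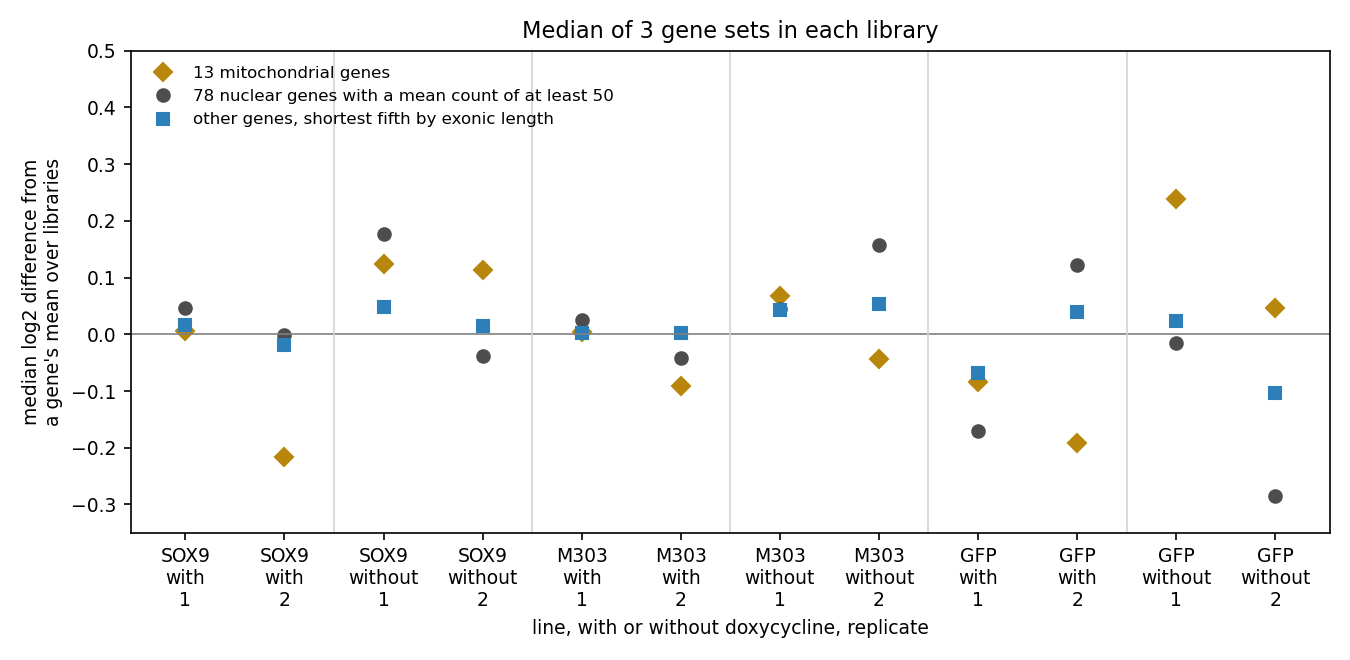
Median log2 difference from each gene's mean over the 12 libraries, per library, for the 13 mitochondrial genes, 78 nuclear genes and other genes in the shortest of 5 classes by exonic length. Nuclear genes and short genes are both lowest in replicate 2 of the GFP line without doxycycline (-0.285 and -0.104) and in replicate 1 of the GFP line with doxycycline (-0.170 and -0.068).

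The uninduced lines were compared with the uninduced GFP line, and no member was called in either comparison, where edgeR called 0% of genes for the SOX9 line and 0.00549% for the M303 line. The nuclear medians were 0.20 in the SOX9 line and 0.25 in the M303 line, and the mitochondrial medians -0.04 and -0.11. With 1 library left out the mitochondrial medians ran from -0.11 to 0.051 and from -0.199 to -0.024, the upper values without replicate 1 of the uninduced GFP line. Both comparisons share the uninduced GFP libraries, 1 of which was the lowest in short genes. Without that library, replicate 2, the nuclear medians were 0.075 and 0.13 in the SOX9 and M303 lines. Without replicate 1 they were 0.35 and 0.41. Nuclear members come from the same libraries and can shift together, so the counts that follow are not counts of separate observations. In the uninduced M303 line 53 of 80 nuclear members had both libraries above both of GFP, against 18.8% of all genes, and 2 below, against 18.6%. There 24 nuclear members were higher at an unadjusted p under 0.05, against 3.47%, and the mitochondrial MT-CO1 (-0.19), MT-ATP8 (-0.35) and MT-ND5 (-0.25) were lower, against 2.62%. In the uninduced SOX9 line 29 of 80 lay above, against 16.7%, and 0 below, against 14.8%, and 12 were higher at such a p, against 2.96%, with 0 members lower, against 1.79%. The nuclear members with the smallest p were NDUFB6 at 0.55 ± 0.13, NDUFA2 at 0.61 ± 0.17 and ATP5MJ at 0.43 ± 0.14 (0.24 without SOX9 replicate 1) for the SOX9 line. For the M303 line they were NDUFA3 at 0.54 ± 0.15 (0.25 without GFP replicate 2), the acyl carrier protein NDUFAB1 at 0.31 ± 0.10 and SDHC at 0.23 ± 0.08 (log2, SE).

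Other genes of the pathway were read from 7 lists. In the SOX9 line 1 of 51 assembly factors, 1 of 10 nuclear regulators of respiratory genes and 1 of 18 genes of the mitochondrial stress response were called, each lower, where 1.16% of genes were called lower. No call was made among 15 genes of electron carriers, 16 of mitochondrial DNA and transcription, 18 of mitochondrial RNA processing and 11 chaperones and proteases. In the other 8 comparisons no member of any list was called. The median log2 fold changes of the lists in the SOX9 line ran from -0.18 for the chaperones and proteases, and -0.15 for RNA processing, to 0.00 for the stress response, beside 0.01 for all genes.

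The assembly factor called was BCS1L, which inserts the Rieske protein into complex III, with 33.4 and 33.4 CPM in the SOX9 line with doxycycline and 47.1 and 40.1 CPM without. Its log2 fold change was -0.38 (edgeR adjusted p = 0.0469), and 5 of 12 fits with 1 library left out still called it. It was lost without either SOX9 library with doxycycline (adjusted p = 0.253 and 0.293), without replicate 1 of those without (0.328) and without any M303 library (0.0545 to 0.0604). It was also lost with a replicate block (0.0732), with the 4 libraries of the line alone (0.0676) and with library totals in place of TMM factors (0.0926), and 11 of 21 alternatives called it. ESRRA, a nuclear receptor that activates respiratory genes, had 129 and 128 CPM with doxycycline and 154 and 182 CPM without, a log2 fold change of -0.39 (adjusted p = 0.0085). It was lost without either SOX9 library with doxycycline (adjusted p = 0.0782 and 0.0951) and without replicate 2 of those without (0.191). TRIB3, a pseudokinase of the stress response, had 167 and 183 CPM with doxycycline and 211 and 241 CPM without, a log2 fold change of -0.37 (adjusted p = 0.0093). It was lost without replicate 1 of the SOX9 line with doxycycline (0.207) and replicate 2 without (0.176).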

How the data were processed

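RNA of 12 LS180 libraries was captured with oligo(dT), primed with random hexamers and sequenced as 150-bp read pairs, per the labels' protocols, with no step that marks strand. The authors deposited unnormalized read counts by gene. The aligner was STAR 2.7.0a on hg38, per the submitters' processing notes. Per the file headers reads were counted by featureCounts 2.0.1 on Ensembl release 101, with no option for pairs, strand, multi-mapping reads or reads on more than 1 gene, so mates were counted singly and the last 2 kinds were dropped. Counting errors are therefore larger than the totals would give.

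The test was that of edgeR 4.0.16 (R 4.3.3; robust quasi-likelihood F-test, TMM factors 0.981 to 1.02, filterByExpr). All 12 libraries entered 1 model with a mean per group and 6 residual degrees of freedom, and p-values were adjusted over 18219 genes in each of 9 comparisons. The biological coefficient of variation was 10.6%. CPM and RPKM were computed from the deposited counts with TMM factors and the table's exon length. On counts simulated for the SOX9 line comparison (18219 genes), 68% of genes changed by 1.5-fold and 88% of genes changed by 2-fold were recovered. The changed genes were drawn from those with a mean count of at least 50. Changes under 1.5-fold, such as those of the called mitochondrial members, were not simulated. DESeq2 1.42.0, other scalings, no filter, a replicate block and single libraries left out were alternatives. Duplicates differed by 7.38 to 23.2 in chi-square per gene, so none was a repeat deposit. Coding overlaps used GENCODE release 29 (GRCh38). No column was left unused and 0 rows named no gene.

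Members, lists and tests were chosen with earlier results of these data known. Named genes were the 13 mitochondrial members, called nuclear members, the 3 nuclear members of smallest p per comparison, the highest and lowest of each complex, tissue-form pairs, the ATP5MC trio, ATP5IF1, called list members and SOX9. UQCRHL and ATP5MGL beside their pairs, NDUFS7 by sample and the rRNAs were added after their values were seen.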

Additional observations from a re-analysis of the deposited data

How the results depend on the processing

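Of the results that answer a comparison, 722 alternatives left the value as it was within 1.5-fold or the spread between replicates and 64 moved it. Of the values of named genes 1320 stayed the same, 44 became weaker, 47 became stronger, 5 moved and 6 changed sign. Alternative scalings (RLE factors, library totals, factors from nuclear genes) moved no count of called members past 1.5-fold, but library totals ended the call of the assembly factor BCS1L (adjusted p = 0.0926). Length-adjusted scaling, the fit without the 2 libraries lowest in short genes and the means over 2 lines were chosen after seeing the data. The causes were not tested. Counts of called members in the alternatives stand without the share of all genes called in the same fit. They show how the calls depend on the processing and are no result about the members.

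Mitochondrial members called numbered 0 in the SOX9 line, with 6 when no filter was used and 4 without the 2 libraries lowest in short genes. In the GFP line they numbered 0, with 2 when no filter was used and 1 by DESeq2. In the mean effect they numbered 4, with 7 when no filter was used, 5 by DESeq2, 2 with length-adjusted scaling, 0 over the M303 and GFP lines, 1 over the SOX9 and M303 lines and 3 over the SOX9 and GFP lines. Nuclear members called numbered 0 in the SOX9 line and 1 with no filter, by DESeq2, with the 4 libraries of the line alone, with length-adjusted scaling and without the 2 libraries. With no filter 1 nuclear member was called in SOX9 minus GFP induction, 2 in the uninduced SOX9 and 3 in the uninduced M303 comparison.

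The mitochondrial median in the GFP line was -0.36 with length-adjusted scaling and -0.41 without the 2 libraries lowest in short genes. In SOX9 minus GFP induction it was 0.17 without those 2 libraries, and in M303 minus GFP induction 0.33 without them and 0.37 with length-adjusted scaling. With that scaling it was -0.19 in the uninduced SOX9 and -0.35 in the uninduced M303 comparison. MT-ND3 turned positive in the mean effect at 0.0024 over the M303 and GFP lines, 0.026 over the SOX9 and GFP lines, 0.0052 without replicate 2 of the SOX9 line, 0.034 without replicate 1 of the M303 line and 0.021 without replicate 1 of the GFP line, all 3 with doxycycline, and 0.13 without replicate 1 of the GFP line without doxycycline, with a range of -0.13 to 0.13 over all libraries left out singly.

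With single libraries left out, calls of mitochondrial members ranged from 0 to 2 in the SOX9 line, 0 to 6 in the mean effect and 0 to 1 in the uninduced SOX9 comparison. Calls of nuclear members ranged from 0 to 1 in the SOX9 line, 0 to 2 in the GFP line, 0 to 4 in SOX9 minus GFP induction, 0 to 3 in M303 minus GFP induction, 0 to 4 in the uninduced SOX9 and 0 to 9 in the uninduced M303 comparison. Mitochondrial medians ranged from -0.34 to -0.087 in the SOX9 line and -0.10 to 0.14 in SOX9 minus GFP induction. Nuclear medians ranged from -0.026 to 0.28 in the GFP line, -0.34 to 0.0022 in SOX9 minus GFP induction, -0.43 to -0.073 in M303 minus GFP induction, 0.075 to 0.35 in the uninduced SOX9 and 0.13 to 0.41 in the uninduced M303 comparison. The difference in mitochondrial share ranged from -0.196 to -0.0545 percentage points in the SOX9 line, that in nuclear share from -0.0195 to 0.157 in the GFP line, and that in their ratio from -0.418 to -0.206 in the GFP line.

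The replicate numbers did not pair the libraries: deviations of same-numbered libraries correlated at -0.294 to 0.258 between groups. With the number as a replicate block, 4 mitochondrial and 0 nuclear members were called in the mean effect, with a mitochondrial median of -0.19. Under the block BCS1L had an adjusted p of 0.0732 and was not called in the SOX9 line.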
